A study of Mus musculus with 8 samples.

Results

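The TET oxidases and their base-excision partners are a group of 9 genes tied to the removal of DNA methylation: Tet1, Tet2 and Tet3, Tdg, Mbd4, Apex1, and Gadd45a, Gadd45b and Gadd45g. The members were taken as every probe set of the array annotated to exactly 1 of these symbols, with no use of measured values. This gave 18 of 45037 probe sets, for 8 of the 18193 genes with a probe set. The number per gene was 4 for Tet1, 2 for Tet2, 1 for Tet3, 3 each for Mbd4, Apex1 and Gadd45b, and 1 each for Gadd45a and Gadd45g. Tdg had none: each of the 3 probe sets that name it also names a related pseudogene, so no value is given for it here.

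RNA of 8 clones of mouse induced pluripotent stem (iPS) cells had been read on Affymetrix mouse 430_2 arrays, 1 array per clone. One group was 4 clones derived with ascorbic acid in the medium, and the other was 4 clones derived without it. All 8 came from embryonic fibroblasts of Col-OKSM mice, in which doxycycline switches on Oct4, Sox2, Klf4 and cMyc, and all were grown out on a layer of irradiated embryonic fibroblasts, in serum-containing medium to which LIF and doxycycline had been added. Feeders were reduced before RNA extraction by letting them settle on uncoated plastic. The comparison asks whether RNA levels of the demethylation enzymes differ between clones derived with and without the vitamin. The array values are RNA levels: enzyme activity, 5-methylcytosine and 5-hydroxymethylcytosine were not measured. The labels call the clones biological replicates without saying whether they came from separate embryos, so a p-value reflects only the variation among the clones at hand. Means are given ± SD over the 4 clones of a group unless stated otherwise.

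As background, TET proteins are iron-dependent dioxygenases that use oxygen and 2-oxoglutarate to oxidise 5-methylcytosine to 5-hydroxymethylcytosine and then to 5-formylcytosine and 5-carboxylcytosine. Ascorbic acid helps such enzymes by keeping their iron reduced. TDG, a DNA glycosylase, removes the formyl and carboxyl forms, APEX1 cuts the strand at the site left without a base, and repair synthesis puts in unmodified cytosine. MBD4 is a glycosylase that acts on T or U mismatched with G at CpG sites, and the GADD45 proteins are small stress-inducible nuclear proteins that have been tied to repair-based demethylation. In mouse pluripotent cells Tet1 and Tet2 are the TET genes known to be expressed, while Tet3 is known from the oocyte and zygote.

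The letters before the start sites of 5 members are shown because the ratios within arrays set these genes against each other: Tet1 against Tet2, and Gadd45a against its paralogs. They are the 250 bases upstream of the RefSeq start on build GRCm38.p6, 5′ to 3′ on the gene's own strand, at chr10:62887325-62887574 on the minus strand for Tet1 and chr3:133544391-133544640 on the minus strand for Tet2, with each CG in capitals.
Tet1: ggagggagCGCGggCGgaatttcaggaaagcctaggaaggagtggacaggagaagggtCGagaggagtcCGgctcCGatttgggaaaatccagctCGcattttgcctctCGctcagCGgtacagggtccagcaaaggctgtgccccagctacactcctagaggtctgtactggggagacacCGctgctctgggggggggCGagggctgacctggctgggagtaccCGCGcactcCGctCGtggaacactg
Tet2: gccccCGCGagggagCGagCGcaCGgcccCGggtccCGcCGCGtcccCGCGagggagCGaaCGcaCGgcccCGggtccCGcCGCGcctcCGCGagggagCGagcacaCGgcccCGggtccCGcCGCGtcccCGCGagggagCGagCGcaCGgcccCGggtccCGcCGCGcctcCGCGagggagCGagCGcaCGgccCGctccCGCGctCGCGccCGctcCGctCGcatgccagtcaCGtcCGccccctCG

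The Tet2 stretch held 51 CG dinucleotides, more than in 99.93% of the 32851 RefSeq promoter stretches of the same length, and the Tet1 stretch held 15, more than in 72.69%. A run of nearly the same letters recurs several times along the Tet2 stretch, and much of its CG count lies in these repeats. Over all promoters the median was 6. Tet3, which is not printed, held 17, and the 9 listed genes ranged between 11 CG dinucleotides in Gadd45a and 51 in Tet2. The arrays do not read methylation, so these letters show only where CG sites stand.

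The upstream letters of the 3 GADD45 genes lie at chr6:67037408-67037657 on the minus strand for Gadd45a, chr10:80929841-80930090 on the plus strand for Gadd45b and chr13:51846425-51846674 on the plus strand for Gadd45g. Capitals mark the octamer ATTTGCAT, the E-box CACGTG and the CCAAT box, each searched as spelled on both strands, and none of the marked stretches touch each other.
Gadd45a: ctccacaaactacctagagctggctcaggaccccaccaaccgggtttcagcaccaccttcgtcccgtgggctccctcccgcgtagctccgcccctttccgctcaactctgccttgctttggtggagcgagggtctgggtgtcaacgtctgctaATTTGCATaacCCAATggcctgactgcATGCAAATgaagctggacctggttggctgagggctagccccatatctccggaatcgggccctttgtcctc
Gadd45b: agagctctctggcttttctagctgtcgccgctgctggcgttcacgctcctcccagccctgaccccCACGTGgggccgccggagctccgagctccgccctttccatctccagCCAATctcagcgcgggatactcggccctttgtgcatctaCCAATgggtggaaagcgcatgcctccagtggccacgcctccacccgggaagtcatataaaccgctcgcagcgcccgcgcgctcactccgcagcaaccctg
Gadd45g: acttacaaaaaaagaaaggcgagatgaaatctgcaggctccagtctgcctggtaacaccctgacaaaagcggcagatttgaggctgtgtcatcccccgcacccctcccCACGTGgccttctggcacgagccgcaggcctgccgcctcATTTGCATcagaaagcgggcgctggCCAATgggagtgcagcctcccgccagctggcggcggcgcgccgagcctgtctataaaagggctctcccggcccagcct

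Gadd45a held the octamer 2 times, Gadd45g 1 time and Gadd45b 0 times, and the octamer was present in 526 of the 32851 promoters. The other 6 listed genes held 0. The E-box, found in 1978 promoters, was present 1 time in each of Gadd45b and Gadd45g and 0 times in Gadd45a. The CCAAT box, found in 33.85% of promoters, was present in all 3. A match of letters is a description and says nothing of which proteins bind there.

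No member passed the test between clones derived with and without ascorbic acid. Of the 7 member genes tested on their brightest probe set, 0 passed in limma (Benjamini-Hochberg, over the 13126 genes of the fit), against 0.0229% of all tested genes, or 3 genes. Tet1 and Gadd45a had an unadjusted p under 0.05, both higher with ascorbic acid, which is 28.6% of the 7 members beside 5.84% of all tested genes. The median log2 difference of the 7 members was 0.076, beside -0.0042 for all tested genes, and 5 were higher and 2 lower. With so few members these shares rest on 2 genes. Fold changes are on the scale of log2(signal + 16), with ascorbic acid minus without.

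Read probe set by probe set, 0 of 18 passed the limma test over all 45037 probe sets, where 0.0244% passed. Of the 18, 12 were higher and 6 lower with ascorbic acid. An unadjusted p under 0.05 was found for 4 probe sets, all higher (22.2%, beside 5.37% of all probe sets): 2 of Tet1, 1 of Mbd4 and the 1 of Gadd45a. The groups did not overlap for 2 probe sets (11.1%, beside 3.12%), those of Gadd45a and Mbd4. At the level of genes, 1 of 7 members (14.3%) had groups that did not overlap, beside 3.63% of tested genes. Probe sets of 1 gene are annotated to the same symbol and were read in the same clones, so they are not treated as independent.

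**Figure D1:**
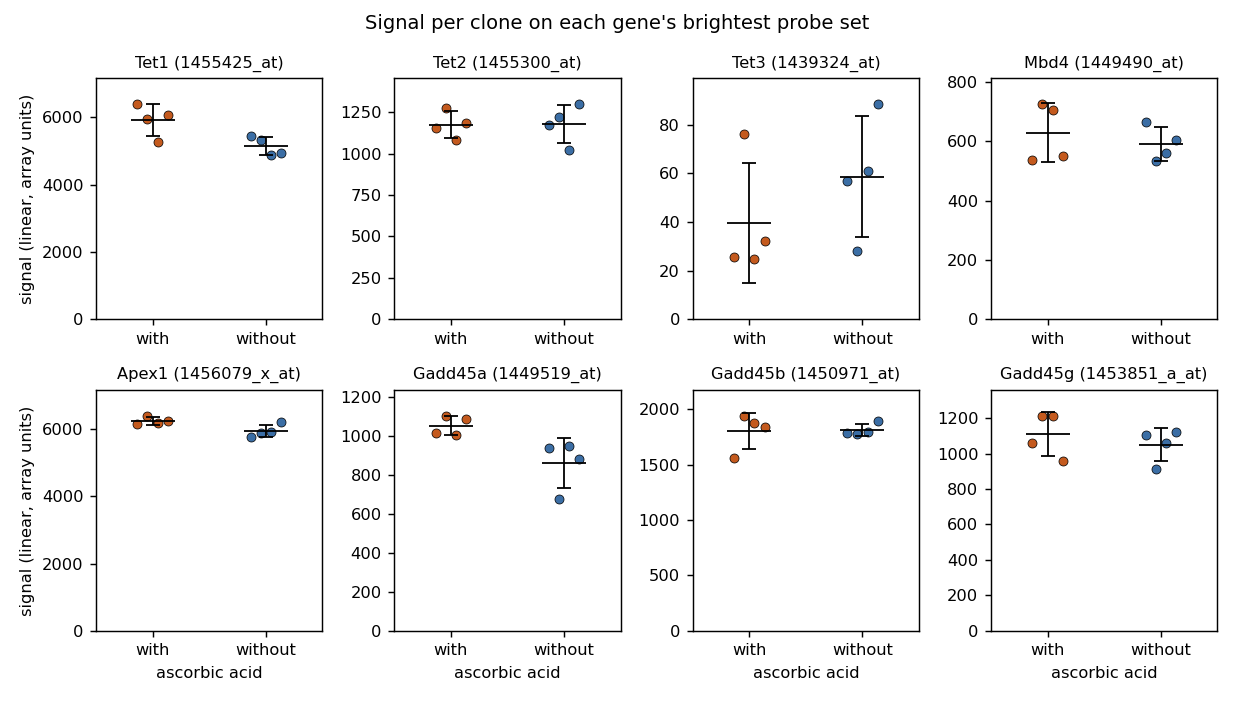
Signal of each clone (points, linear array units, axes starting at 0) on the brightest probe set of the 8 member genes that have one, for clones derived with (left) and without (right) ascorbic acid; the line is the mean and the bar the SD of 4 clones. Only for Gadd45a do the groups not overlap, at 1009 to 1105 with and 676 to 950 without ascorbic acid.

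Tet1, the TET oxidase best known from pluripotent cells, had a larger difference than Tet2, the only other TET gene in the gene fit. On its brightest probe set (1455425_at) the signal was 6390, 5948, 5260 and 6085 in clones 1 to 4 with ascorbic acid, against 5437, 5326, 4886 and 4954 in clones 1 to 4 without. Only clone 3 with ascorbic acid lay inside the range of the clones without it, so the groups overlapped. The mean was 5921 ± 478 with and 5151 ± 272 without ascorbic acid (SD, n = 4), which is a log2 difference of 0.20 ± 0.069 (SE; 1.15-fold) with an adjusted p of 0.759 in limma. The exact two-sided permutation test over the clones gave p = 0.0857, where 0.0286 is the smallest p that 4 against 4 clones allow.

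The other Tet1 probe sets did not all read a difference of this size. The dimmest (1419897_at) read 195, 176, 137 and 228 in clones 1 to 4 with ascorbic acid, against 121, 125, 138 and 83.8 without. The 2 groups met at clone 3 of each, which read 137.0 with and 138.0 without. The log2 difference of this probe set was 0.58 ± 0.20 (SE; unadjusted p = 0.0147 and adjusted p = 0.890 in limma over all probe sets). Probe set 1429448_s_at, of a class that can read several transcripts, averaged 3163 ± 295 with and 3067 ± 300 without ascorbic acid (SD, n = 4), which is a log2 difference of 0.045. Probe set 1419896_at averaged 1478 ± 158 with and 1398 ± 42.6 without (SD, n = 4), which is a log2 difference of 0.074. All 4 Tet1 probe sets were thus higher on average with ascorbic acid, by 0.045 to 0.58 log2, and in all 4 the groups overlapped. The 0.58 came from the dimmest, where the highest of the 8 clones was 2.72 times the lowest. On the other Tet1 probe sets the highest was 1.25 to 1.31 times the lowest.

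Tet2, the other TET oxidase of pluripotent cells, averaged 1175 ± 81.7 with and 1180 ± 117 without ascorbic acid (SD, n = 4) on its brightest probe set. Its signal (1455300_at) was 1154, 1278, 1081 and 1189 in clones 1 to 4 with ascorbic acid, against 1177, 1220, 1022 and 1300.0 without. The clones without ascorbic acid held both the highest and the lowest value. The log2 difference was -0.0025 ± 0.082 (SE; adjusted p = 0.996 in limma), and its 95% interval in the fit over all probe sets ran between 0.881-fold and 1.13-fold. The second probe set (1438781_at) averaged 798 ± 78.5 with and 882 ± 144 without ascorbic acid (SD, n = 4), which is a log2 difference of -0.13 ± 0.11 (SE).

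Tet3, the TET oxidase of oocyte and zygote, was read by 1 probe set (1439324_at) at the dim end of the arrays. Its signal was 25.5, 76.1, 24.6 and 32.0 in clones 1 to 4 with ascorbic acid, against 57.0, 27.9, 61.1 and 88.4 without. All 8 values lay below 93.7, the limit under which the dimmest 40% of probe sets were left out of the gene fit, so Tet3 was tested only among all probe sets. The groups overlapped, and the largest value was 3.59 times the smallest over the 8 clones. The log2 difference was -0.45 ± 0.34 (SE; adjusted p = 0.943 in limma over all probe sets), with a 95% interval between 0.435-fold and 1.23-fold.

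The ratio of 2 members within 1 array, each as signal + 16, was used to compare the TET genes with each other. Scaling between arrays nearly cancels in it for bright probe sets, but not for one as dim as that of Tet3. A change in such a ratio shows unequal change only. The log2 ratio of Tet1 over Tet2 was 2.45, 2.20, 2.27 and 2.34 in clones 1 to 4 with ascorbic acid, against 2.19, 2.11, 2.24 and 1.92 without. It was higher with ascorbic acid by 0.20 ± 0.089 (SE) on average, with 1 clone of that group inside the range of the other, an exact two-sided permutation p of 0.0571 and 0.171 after adjustment over the 6 ratios computed. Tet2 alone differed by -0.0025 and Tet1 by 0.20, so this ratio mostly repeats the Tet1 difference and is not a separate result. The ratio of Tet1 over Tet3 differed by 0.65 ± 0.40 (SE; exact permutation p = 0.143), and that of Tet2 over Tet3 by 0.45 ± 0.35 (SE; exact permutation p = 0.286). Both rest on the dim Tet3 probe set and moved with the pseudocount, to 0.81 and 0.61 with a pseudocount of 1 and 0.44 and 0.25 with one of 64. Without clone 2 of the clones that had no ascorbic acid they were 0.90 and 0.70, and without clone 2 of those that had it 0.92 and 0.68.

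**Figure D2:**
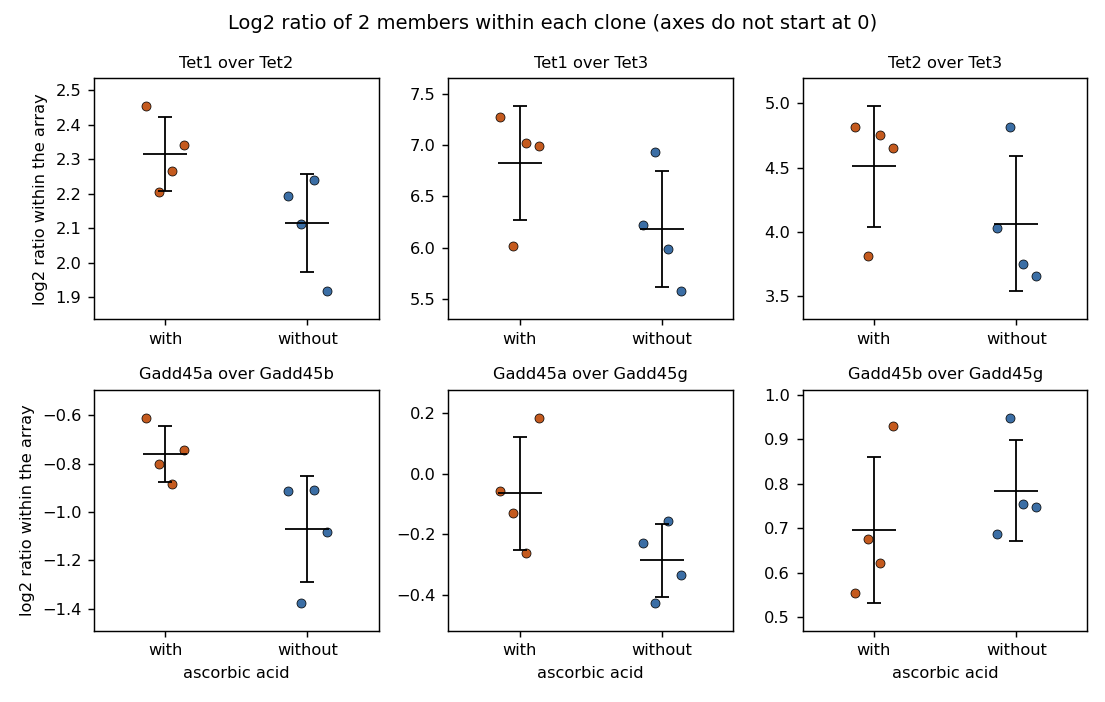
Log2 ratio of 2 members within each clone's array (points; brightest probe sets, axes not starting at 0) for clones derived with (left) and without (right) ascorbic acid; the line is the mean and the bar the SD of 4 clones. Of the 6 ratios the groups do not overlap only for Gadd45a over Gadd45b, where the lowest clone with ascorbic acid is at -0.88 and the highest without is at -0.91.

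Mbd4, the glycosylase for mismatches at CpG sites, was read by 3 probe sets that differed in the size of the difference. The brightest (1449490_at) read 537, 725, 704 and 549 in clones 1 to 4 with ascorbic acid, against 664, 533, 561 and 603 without. Clones 2 and 3 with ascorbic acid were the highest of all 8, while clones 1 and 4 of that group lay among the clones without it. The log2 difference was 0.080 ± 0.11 (SE; adjusted p = 0.942 in limma). Probe set 1457708_at read 446, 448, 430.2 and 482 in clones 1 to 4 with ascorbic acid, against 351, 403, 362 and 420 without, and here the 2 groups did not overlap. Its log2 difference was 0.23 ± 0.088 (SE; unadjusted p = 0.0247 and adjusted p = 0.907 in limma over all probe sets). Probe set 1441079_at averaged 239 ± 15.7 with and 221 ± 24.5 without ascorbic acid (SD, n = 4), which is a log2 difference of 0.11.

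Apex1, the endonuclease that cuts at sites without a base, varied least of the members. Its brightest probe set (1456079_x_at) read 6149, 6393, 6189 and 6226 in clones 1 to 4 with ascorbic acid, against 5778, 5877, 5907 and 6207 without. Only clone 4 without ascorbic acid reached the clones with it. The log2 difference was 0.071 ± 0.052 (SE; adjusted p = 0.877 in limma). The other Apex1 probe sets, 1437715_x_at and 1416135_at, had log2 differences of 0.0094 and 0.024. Of the Apex1 probe sets only 1416135_at is outside the _x_at class, whose probes can also read other transcripts. On the 3 probe sets the highest of the 8 clones was 1.08 to 1.11 times the lowest, and all 3 intervals of the difference lay between 0.930-fold and 1.14-fold.

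Gadd45a, a target of p53 and other stress pathways, was the member with the smallest p in the gene fit. Its single probe set (1449519_at) read 1018, 1105, 1009 and 1089 in clones 1 to 4 with ascorbic acid, against 939, 676, 950.1 and 886 without. The 2 groups did not overlap, the lowest value with the vitamin being 1009 and the highest without it 950.1, and clone 2 without ascorbic acid was the lowest. The mean was 1055 ± 48.9 with and 863 ± 128 without ascorbic acid (SD, n = 4), which is a log2 difference of 0.30 ± 0.10 (SE; 1.23-fold), and its adjusted p in limma was 0.757. The exact permutation p was 0.0286, the smallest this design can give, and the gene ranked 205 of 13126 by p. When that lowest clone was left out, the log2 difference was 0.19 (adjusted p = 0.647 in limma, within a range of 0.647 to 0.943 over the 20 alternatives tried).

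Gadd45b and Gadd45g, its paralogs, had groups that overlapped on every probe set. Gadd45b (1450971_at) read 1563, 1941, 1875 and 1837 in clones 1 to 4 with ascorbic acid, against 1785, 1779, 1797 and 1895 without. The log2 difference was -0.012 ± 0.071 (SE; adjusted p = 0.985 in limma), and clone 1 with ascorbic acid was the lowest of the 8. Its probe sets 1449773_s_at and 1420197_at had log2 differences of -0.024 and -0.18. Gadd45g (1453851_a_at) read 1059, 1209, 1213 and 956 in clones 1 to 4 with ascorbic acid, against 1103, 914, 1059 and 1122 without. Its log2 difference was 0.076 ± 0.092 (SE; adjusted p = 0.933 in limma), and clones 2 and 3 with ascorbic acid were the highest, as for Mbd4.

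Within the arrays, the log2 ratio of Gadd45a over Gadd45b was -0.61, -0.80, -0.88 and -0.75 in clones 1 to 4 with ascorbic acid, against -0.92, -1.38, -0.91 and -1.08 without. The 2 groups did not overlap, though clone 3 of each group differed by little. The difference was 0.31 ± 0.12 (SE), with an exact two-sided permutation p of 0.0286, which is 0.171 after adjustment over the 6 ratios. Gadd45b alone differed by -0.012 and Gadd45a by 0.30, so this ratio mostly repeats the Gadd45a difference and is not a separate result. Gadd45a over Gadd45g differed by 0.22 ± 0.11 (SE; exact permutation p = 0.114). Gadd45b over Gadd45g differed by -0.088 ± 0.10 (SE; exact permutation p = 0.371).

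**Figure D3:**
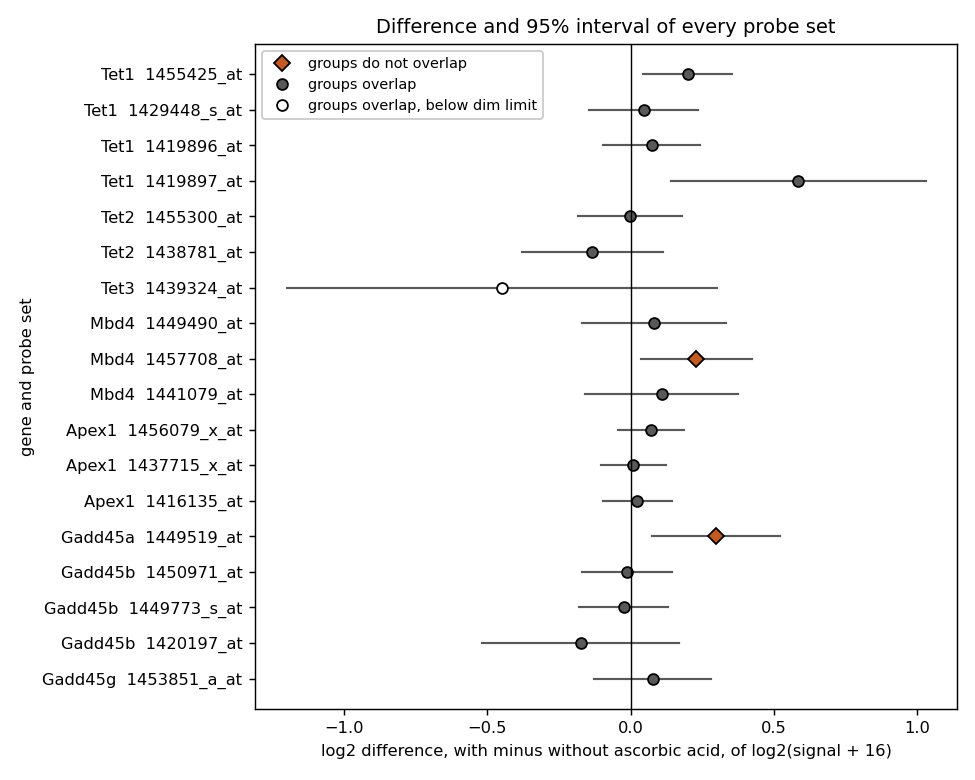
Log2 difference (with minus without ascorbic acid, of log2(signal + 16)) of each of the 18 probe sets with its 95% interval from limma over all probe sets; diamonds mark groups that do not overlap and the open point a probe set below the dim limit. The intervals of 4 probe sets (1455425_at and 1419897_at of Tet1, 1457708_at of Mbd4, and Gadd45a) lie above 0, and none passed after adjustment.

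Other genes of the pathway gave no call either. Of the lists, 18 of 20 base excision repair genes were tested, 9 higher and 9 lower with ascorbic acid, with 0 past the limma threshold and 0 with an unadjusted p under 0.05 (median log2 difference -0.011). The smallest p values were those of Apex2, a second endonuclease of the Apex1 type, at 383 ± 11.5 with and 332 ± 38.4 without ascorbic acid (SD, n = 4; log2 difference 0.20), and Mutyh, an adenine glycosylase, at 844 ± 8.69 with and 941 ± 107 without (SD, n = 4; log2 difference -0.15). Groups did not overlap for 2 of the 18, beside 3.63% of all tested genes, and in opposite directions: Mutyh was lower, and Ogg1, the 8-oxoguanine glycosylase, was higher (337 to 362 with and 308 to 330 without ascorbic acid). Ogg1 is named for this after its values were seen.

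Regulators of TET proteins and suppliers of their cofactors, such as the isocitrate dehydrogenases that make 2-oxoglutarate and the ascorbate transporters Slc23a1 and Slc23a2, were tested in 14 of 15 cases, 6 higher and 8 lower. In limma 0 passed and 0 had an unadjusted p under 0.05 (median log2 difference -0.014). Their smallest p values belonged to Idh2 (3837 ± 253 with and 4199 ± 406 without ascorbic acid, SD, n = 4) and Prdm14, a pluripotency factor that recruits TET proteins in mouse cells (618 ± 31.1 with and 694 ± 86.2 without, SD, n = 4). The cytidine deaminases, with 3 of 4 tested, held 0 calls and 0 unadjusted p under 0.05, with Apobec3 at -0.083 and Apobec1 at -0.17 log2. GADD45 partners, with 8 of 10 tested, held 2 higher and 6 lower genes and likewise 0 calls and 0 unadjusted p under 0.05, with the kinase Mapk14 at 0.13 and the nuclease Ercc5 at -0.19 log2.

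The enzymes that write and keep DNA methylation were read beside those that remove it. The 3 de novo genes Dnmt3a, Dnmt3b and Dnmt3l had log2 differences of 0.0042 to 0.052, with 0 calls in limma and 0 unadjusted p under 0.05. Of 6 maintenance genes 2 were higher and 4 lower, with 0 calls and 1 unadjusted p under 0.05: Zfp57, a zinc finger protein that protects imprints, at 592 ± 104 with and 721 ± 89.1 without ascorbic acid (SD, n = 4; log2 difference -0.29, adjusted p = 0.834). Its partner Trim28 was at -0.17 log2. Of 6 tested readers of methyl-CpG 1 was higher and 5 were lower, with 0 calls and 0 unadjusted p under 0.05, and with Mbd2 at -0.15 and Zbtb38 at -0.13 log2.

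**Figure D4:**
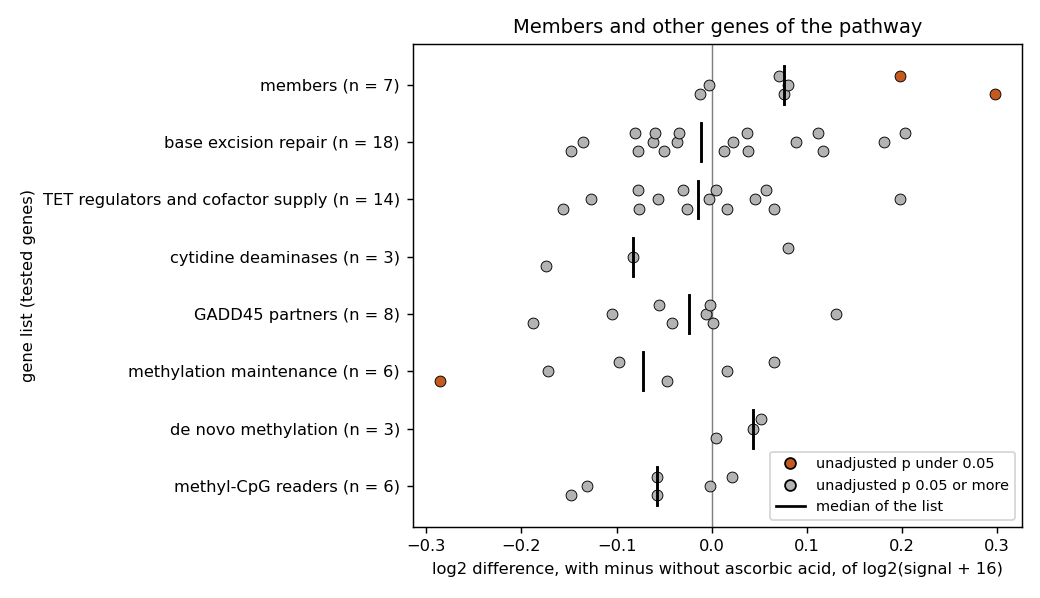
Log2 difference (with minus without ascorbic acid, of log2(signal + 16)) of each tested gene (points) of the members and of 7 other pathway lists, with the median of each list as a bar; filled orange points have an unadjusted p under 0.05. The member median is 0.076, and Tet1, Gadd45a and Zfp57 are the genes with an unadjusted p under 0.05.

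The cells were checked with markers. The pluripotency markers include Pou5f1, Sox2 and Klf4, which are also among the factors that doxycycline switches on. Whether RNA of the introduced copies adds to their signal was not tested. All 10 pluripotency markers were tested, 1 higher and 9 lower with ascorbic acid, with 0 calls in limma and 0 unadjusted p under 0.05, and with Pou5f1 (Oct4) at 10295 ± 948 with and 11283 ± 292 without ascorbic acid and Dppa5a at 24021 ± 3953 with and 28452 ± 4220 without it (SD, n = 4). Of 9 tested fibroblast and feeder markers 2 were higher and 7 lower with ascorbic acid (median log2 difference -0.19), with 0 calls. An unadjusted p under 0.05 was found for 4 of the 9, beside 5.84% of all tested genes, and 3 of these were lower: Postn, Col1a2 and Col3a1, genes of the fibroblast matrix. Postn averaged 317 ± 33.9 in clones with and 416 ± 22.8 in clones without the vitamin (SD, n = 4), and its groups did not overlap, at 286 to 357 with and 389 to 440.2 without. Col1a2 and Col3a1 had log2 differences of -0.30 and -0.34, with groups that overlapped. The fourth, the transcription factor Twist1, was higher, at 201 ± 26.7 with and 135 ± 21.1 without (SD, n = 4). Summed over these 9, the signal ranged between 13854.5 and 18529.6 in clones with ascorbic acid and between 16020.4 and 19259 in clones without. Dcn and Lum, which define fibroblasts, lay below the dim limit, and Fbn1 was not analysed here. Whether feeder RNA plays a part in the values of Tet1 or Gadd45a was not tested, and fewer cells of a type and less RNA per cell cannot be told apart in such samples. Of 8 tested differentiation markers 6 were higher and 2 lower, with 0 calls and 1 unadjusted p under 0.05, Nes (log2 difference -0.21), next to Gata6 at 0.31. Outside these lists, the 3 genes called were Meg3 (6723 ± 1645 with and 1304 ± 534 without ascorbic acid, SD, n = 4) and Rian (2319 ± 413 with and 364 ± 144 without), imprinted long RNAs, and Tcf15, a transcription factor (1663 ± 92.9 with and 769 ± 230.3 without). Array medians lay between 134.0 and 156 with and between 144 and 153 without ascorbic acid, and the log2 signals of any 2 arrays correlated across probe sets at 0.970 to 0.977.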

How the data were processed

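RNA of 8 iPS clones, 4 derived with and 4 without ascorbic acid, was read on 1 array each. The deposited table holds linear signal intensity, 1 value for each probe set and array. The submitters' processing notes name GCOS, but its version and settings were not given in the sources used here. Trimming 2% at each end leaves every array of the deposited table with a mean intensity of 500.0. The table has 45101 rows, of which 64 array controls were left out. The array annotation gave 34945 probe sets 1 symbol, 932 several and 9160 none; 99.4% of single symbols matched RefSeq (GRCm38.p6) through Entrez identifiers and 0 were renamed. Promoter letters come from RefSeq. The number of arrays limits the precision.

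Signals were taken as log2(signal + 16) with the deposited scaling. Groups and clone numbers came from the labels. The gene fit used the brightest probe set of each gene and left out the dimmest 40% of probe sets by average log2 signal (limit 93.7). The probe set fit used all 45037. Both were limma 3.58.1 (R 4.3.3) with an intensity trend, two-sided, Benjamini-Hochberg over all features of the fit, threshold 0.05. Ratios within arrays were tested over all 70 assignments of the clones. The scripts were tested on simulated data. Alternatives were other scalings, pseudocounts of 1 and 64, other dim filters, averaging probe sets per gene, no _s_at and _x_at probe sets, other variance models, clone number as a block, and leaving out each clone. Drawings used matplotlib 3.10.9.

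The members and lists were chosen with earlier results of these data known. Every member was to be named, and from each other list the genes past the threshold or else the 2 with the smallest p; for each TET gene, also the 3 genes most like it over the clones.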

Additional observations from a re-analysis of the deposited data

Results flagged for a closer look

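Each member probe set was examined in each group for a clone far from the other 3, by Dixon's ratio of the gap to its nearest neighbour over the whole range. Of 36 such groups 2 held one, and chance gives about 1 in 20. Tet3 (1439324_at) was at 76.1 in clone 2 of the group with ascorbic acid, while its 3 companions lay between 24.6 and 32.0, all below the dim limit. Gadd45b (1450971_at) was at 1895 in clone 4 of the group without ascorbic acid, while its 3 companions lay between 1779 and 1797.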

How the results depend on the processing

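No member gene passed under any of the 20 alternatives to the gene fit, and no member probe set under any of the 19 alternatives to the probe set fit; the 10 pathway and marker lists also held 0 calls under all 20. Over all genes 1 to 4 were called, against 3 in the gene fit as reported: 1 in eBayes without the trend and 1 with robust estimation. In each alternative 2 members had an unadjusted p under 0.05, and the smallest adjusted p of a member was 0.596 (Tet1, without clone 3 with ascorbic acid). Of 140 values of members 131 kept their direction and 9 did not, all of genes near 0. Tet2 was at 0.031 under median centring, 0.022 with array weights, and 0.0055, 0.036, 0.015 and 0.045 without clones 1 and 3 with ascorbic acid and 2 and 4 without. Gadd45b was at 0.021 under median centring, 0.054 without clone 1 with ascorbic acid and 0.0088 without clone 4 without it. Median centring moved the median of all genes by 0.033 log2 and quantile normalization by 0.0056. Leaving out single clones gave -0.069 to 0.045 for Tet2, -0.049 to 0.054 for Gadd45b, 0.16 to 0.25 for Tet1, 0.19 to 0.35 for Gadd45a, 0.057 to 0.092 for Apex1, 0.0091 to 0.15 for Mbd4 and 0.012 to 0.14 for Gadd45g. The lowest were without clone 2 with ascorbic acid for Mbd4 and without clone 2 of the other group for Gadd45g. Apex1 was at 0.024 without _s_at and _x_at probe sets, and Mbd4 at 0.14 as the mean of its probe sets.

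Over all probe sets, same-numbered clones did not deviate together (correlations -0.092 to 0.025). The labels do not say whether the number pairs clones across the groups. These correlations cannot settle it, since a pairing could touch only some genes. With the clone number as a replicate block 0 members passed, and the adjusted p of both Tet1 and Gadd45a was 0.887. The alternatives for the ratios were chosen after seeing the data; none turned a direction. Without single clones the differences were 0.13 to 0.24 for Tet1 over Tet2, 0.44 to 0.92 for Tet1 over Tet3, 0.31 to 0.70 for Tet2 over Tet3, 0.21 to 0.36 for Gadd45a over Gadd45b, 0.14 to 0.29 for Gadd45a over Gadd45g and -0.17 to -0.034 for Gadd45b over Gadd45g. The lowest value of Gadd45a over Gadd45g was without clone 4 with ascorbic acid.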

Other observations

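Over the 8 clones, the tested gene most like Tet1 on its brightest probe set was Vamp4 (Pearson r = 0.978), then Tsc22d2 (0.964) and Sema5b (0.941). Those most like Tet2 were Gnpat (0.975), Lrp6 (0.970) and Arrb2 (0.966), and those most like the dim Tet3 probe set were Psmc5 (0.959), Wipi2 (0.954) and Sdha (0.952). These are descriptions over 8 arrays that share their scaling, with 13125 genes compared for Tet1 and Tet2 and 13126 for Tet3; 31, 15 and 28 genes had an r above 0.9 with Tet1, Tet2 and Tet3.

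Among the 28 pairs of members compared over the 8 clones, Mbd4 and Gadd45g had the smallest exact p (Pearson r = 0.867, exact permutation p = 0.00486, adjusted p = 0.136; Spearman rho = 0.929, exact permutation p = 0.00223, adjusted p = 0.0625), and neither passed after adjustment. Without the 2 clones farthest from the Mbd4 median r was 0.690 over 6 clones. Within the groups r was 0.906 over the 4 clones with and 0.783 over the 4 without ascorbic acid. Tet1 and Tet2 had an r of 0.243 and Gadd45a and Gadd45b one of 0.102.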
